A study of Mus musculus with 2 samples.

Results

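The serpins are a family of protease inhibitors, many of them secreted by hepatocytes into plasma. They were taken here as every gene symbol of the deposited expression table that starts with Serpin followed by a clade letter from a to i and a number. A total of 67 of 33224 gene symbols met this rule, and they were held by 62 of 38016 loci. None of these 62 loci was marked HIDATA, the mark for loci too abundant to be estimated, which 21 loci of the table carried. Joint loci that name a pair of serpins gave both symbols the same value. There were 5 such loci, those of Serpina3g and Serpina3h, Serpina3k and Serpina3m, Serpinf1 and Serpinf2, Serpinb3b and Serpinb3c, and Serpinb2 with the pseudogene Serpinb10-ps.

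Hepatic RNA of male C57BL/6 mice, aged 4 months by the labels, was sequenced 48 hr after partial hepatectomy (PH). There was 1 library from a wild-type (WT) liver and 1 library labelled PPARβ-null (KO), and neither the labels nor the methods say whether animals were pooled. The labels do not describe the null allele. With 1 library per genotype there is no replicate error, no test was possible, and every difference given here is a difference between these libraries. The targeted gene, Ppard, was listed at 2.67 FPKM for WT and 2.42 FPKM for the library labelled KO. The table gives a single value for the whole Ppard locus and does not show the deleted part, so this value does not check the genotype labels, and each direction below is that of the library labelled KO against the library labelled WT. FPKM counts the fragments of a gene for each kilobase of its exons, relative to the size of the library. An FPKM of 1 on a transcript of 1 kb corresponded to about 53.7 WT fragments and 57.6 KO fragments, as estimated from 5158 single-exon genes. The hepatocyte genes Apoa2, Fgb and Apoa1 were abundant in both libraries, with Fgb at 2698 FPKM (WT) and 4534 FPKM (KO), while Alb was among the loci marked HIDATA.

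A serpin inhibits a protease by offering it an exposed stretch of chain, the reactive centre loop. The protease cuts the loop and is then trapped in a covalent complex as the serpin changes shape. The sequence of the loop largely sets which protease is bound. Plasma serpins made by the liver restrain neutrophil elastase, the clotting proteases, plasmin and the first complement proteases, and some members have lost inhibition and carry hormones or fold collagen. The mouse has expanded the human alpha-1-antitrypsin and antichymotrypsin genes into arrays of close copies. These arrays lie in a clade A cluster of chromosome 12 that holds 27 of the 67 members within 797.7 kb (chr12:104854885-105652539, build NCBIM37).

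The coding sequences of the loops are shown for the genes whose copies are hardest to tell apart, because the loop is the part of the inhibitor that meets the protease. Each line gives 81 bases of the coding strand, with the bases at which the 5 genes are not all alike in capitals.

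Serpina1a: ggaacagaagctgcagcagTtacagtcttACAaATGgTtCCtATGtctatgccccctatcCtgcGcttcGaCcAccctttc
Serpina1b: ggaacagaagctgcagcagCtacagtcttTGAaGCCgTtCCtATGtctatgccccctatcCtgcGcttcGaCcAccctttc
Serpina1c: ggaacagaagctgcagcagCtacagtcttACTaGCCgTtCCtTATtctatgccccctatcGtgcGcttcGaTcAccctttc
Serpina1d: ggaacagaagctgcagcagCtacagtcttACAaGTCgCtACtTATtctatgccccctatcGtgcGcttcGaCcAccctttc
Serpina1e: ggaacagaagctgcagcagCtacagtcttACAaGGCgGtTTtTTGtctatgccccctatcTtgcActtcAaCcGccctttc

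All 5 stretches lie within 1 exon on the minus strand of chromosome 12 of NCBIM37, that of Serpina1a at chr12:105091960-105092040 and that of Serpina1e at chr12:105185303-105185383. Of the 81 bases, 18 varied. Serpina1e carried a base other than the commonest at 8 of these positions, the most of the 5 genes. Where bases tied for commonest, Serpina1e carried none of the tied bases. Between pairs of genes, 4 to 9 of the 27 codons of the loop coded for another residue, and Serpina1e differed from the other copies by 8 or 9. Over the whole coding sequence the 5 genes were 96.3% to 98.5% identical.

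The loops of the abundant Serpina3 genes are shown as coding strands too, but with another use of capitals. Here capitals mark the codons between the start and the end of the stretch. That start and end code for the same residues in these genes, though not always with the same bases.

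Serpina3k: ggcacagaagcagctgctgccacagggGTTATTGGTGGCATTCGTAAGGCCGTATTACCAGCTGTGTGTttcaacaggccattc
Serpina3m: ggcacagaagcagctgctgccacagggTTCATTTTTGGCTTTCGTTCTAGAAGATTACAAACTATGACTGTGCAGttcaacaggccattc
Serpina3n: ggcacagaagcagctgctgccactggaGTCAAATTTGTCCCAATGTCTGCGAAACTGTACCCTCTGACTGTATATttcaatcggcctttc

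These stretches lie on the plus strand, at chr12:105583479-105583562 for Serpina3k, chr12:105631979-105632068 for Serpina3m and chr12:105651658-105651747 for Serpina3n. Serpina3k and Serpina3m were 90.8% identical over their coding sequences, against 82.6% for Serpina3k and Serpina3n.

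The serpin loci together took 3.95% of all FPKM for WT and 5.21% for KO. Nearly all of it came from a few loci, since the 16 loci with a mean of at least 10 FPKM held 99.8% of the serpin FPKM for WT and 99.9% for KO. Of the 67 members, 20 were listed at 0 in both libraries, 11 had a mean above 0 but under 0.1 FPKM, 7 had a mean from 0.1 to 1 FPKM and 29 had a mean of at least 1 FPKM. Among these 29 members, 4 were over 2-fold higher and 8 over 2-fold lower in the KO library. The background over all 11723 symbols with a mean of at least 1 FPKM was 1.77% over 2-fold higher and 8.69% over 2-fold lower, against 13.8% and 27.6% of the members. Counted as loci, 4 were higher and 7 lower among 26.

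Most genes were lower in the KO library as the values stand. The median log2 ratio of KO to WT over the 11723 symbols was -0.24, with 24.4% of them higher and 75.6% lower in the KO library. Of the 29 members, 16 were higher and 13 lower, and 19 of the 29 lay above the median of all symbols and so were higher once the libraries were scaled to equal medians. Over the 36 members with a mean of at least 0.1 FPKM, the median log2 ratio was -0.01 with a pseudocount of 0.1 FPKM, against -0.25 over 15727 symbols. The sign of the members' median turned under other scalings of the libraries, as it lies close to 0.

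The direction differed with the level. Of the 12 loci with a mean of at least 100 FPKM, 10 were higher in the KO library (12 with the libraries scaled to equal medians), where 36.1% of the 790 symbols of this level were higher and 63.9% lower, and their ratios of KO to WT ran from 0.906 to 2.40. Of the 14 loci with a mean from 1 to 100 FPKM, 9 were lower under either scaling, where 76.5% of the 10933 symbols of this level were lower and 23.5% higher, and their ratios ran from 0.0297 to 5.45. As deposited, the abundant loci were thus mostly higher, unlike most symbols of their level. Of these 12 loci, 5 were the Serpina1 copies, whose reads overlap. Those of middle level were, as deposited, lower in no larger a share than all symbols of that level. They held both the highest and the lowest ratios. The shares over all symbols were taken on the values as deposited only, so both contrasts are for that scale. The median log2 ratio was -0.18 over the 790 symbols and -0.24 over the 10933, and equal medians added 0.24. On that scale most of the 790 symbols would be higher too, and the 10933 about evenly split.

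**Figure D1:**
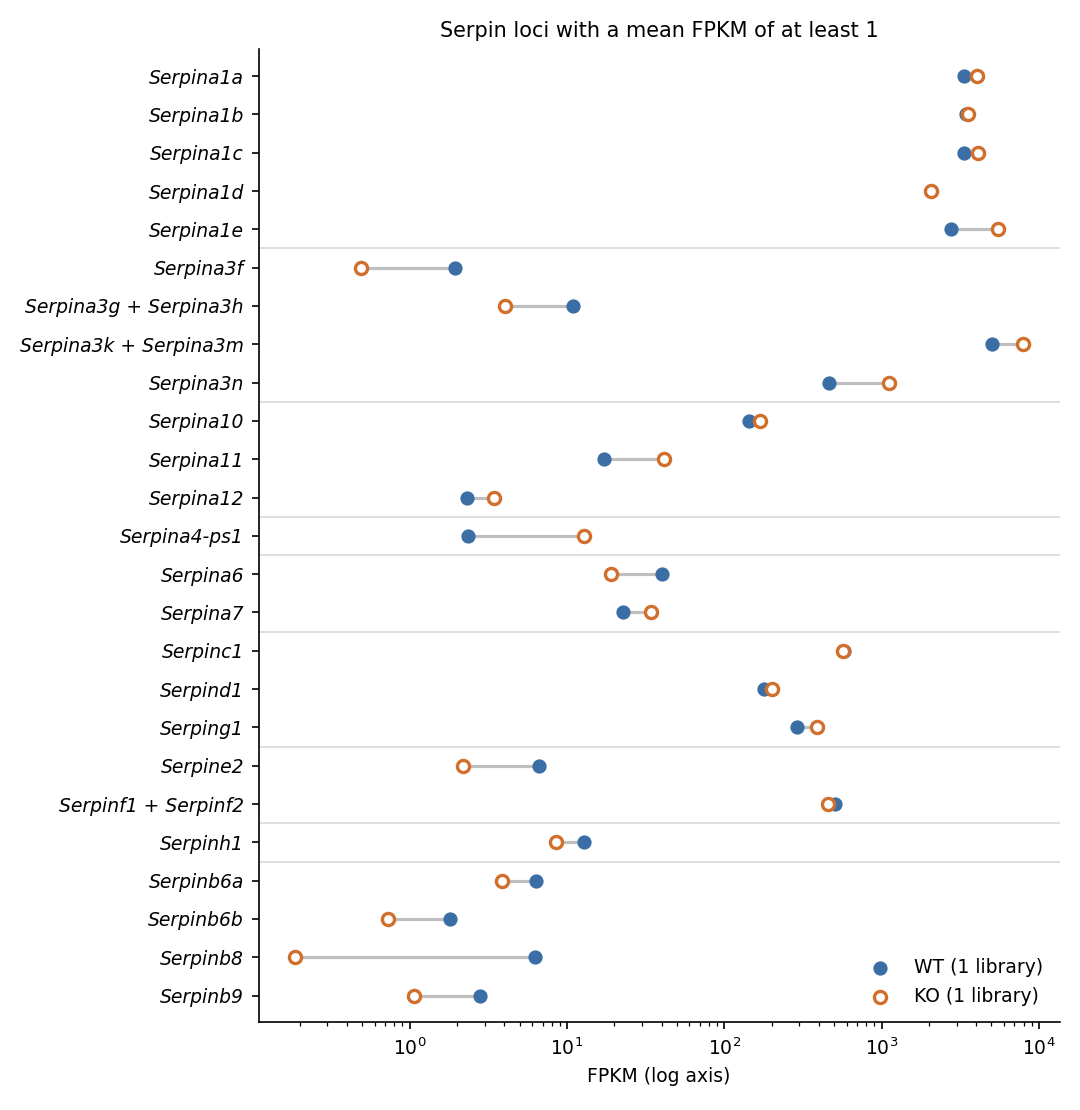
FPKM of 25 serpin loci with a mean FPKM of at least 1, on a log axis, grouped by role, with a filled circle for the WT library and an open circle for the KO library, 1 library each and so without error bars. The Serpina1 loci sit between 2048 and 5493 FPKM, and the widest gap is that of Serpinb8, at 6.28 FPKM in the WT and 0.187 FPKM in the KO library.

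The genes Serpina1a to Serpina1e are the mouse copies of alpha-1-antitrypsin, which in human plasma inhibits neutrophil elastase. Their loops differ, as shown above, and which protease each copy inhibits was not tested. All 5 were at least as high in the KO library as in the WT library, and none was over 2-fold higher. Serpina1e had 2761 FPKM for WT and 5493 FPKM for KO, a ratio of 1.99, which lies just inside the 2-fold limit. Serpina1a had 3337 FPKM in the WT and 4039 FPKM in the KO library, a ratio of 1.21. Serpina1c had 3323 FPKM in the WT and 4077 FPKM in the KO library, a ratio of 1.23. The ratio of Serpina1e was thus the highest of the 5 genes.
The remaining copies were close to equal. Serpina1b had 3443 FPKM in the WT and 3547 FPKM in the KO library, a ratio of 1.03, and Serpina1d had 2048 FPKM and 2055 FPKM, a ratio of 1.004. With no replicates, differences of this size carry no error against which to read them. Serpina1f, a distant relative whose coding sequence was 55.2% to 56.1% identical to the others, was listed at 0 in both libraries.

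Added over the 5 genes, the alpha-1-antitrypsin copies had 14913 FPKM for WT and 19211 FPKM for KO, a ratio of 1.29. Without Serpina1e the ratio of the sum was 1.13. Serpina1e supplied 18.5% of the sum for WT and 28.6% for KO, and moved from the fourth to the first place among the 5 genes. Serpina1d supplied 13.7% of the sum for WT and 10.7% for KO and was the lowest in both.

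The split among these copies depends on how reads that match several of them were assigned, which the methods do not state for these genes. Of all 100-base windows of the Serpina1c transcript, 84.8% matched another copy within 2 mismatches, and 56.2% matched one exactly. The shares within 2 mismatches were 65.1% for Serpina1a, 63.3% for Serpina1b, 53.1% for Serpina1e and 51.4% for Serpina1d. Exact matches were rarest for Serpina1e, at 14.8% of its windows. Provided that each such read was counted once, the sum over the 5 genes is affected less by this split.

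**Figure D2:**
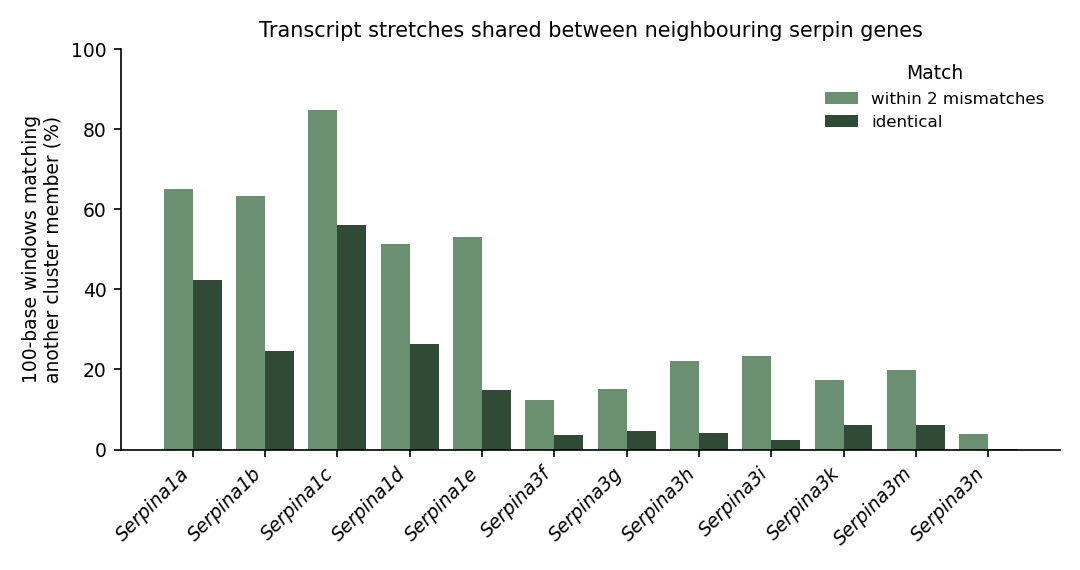
Share of 100-base windows of each transcript, in percent, that match another member of the same cluster within 2 mismatches (light bars) or exactly (dark bars), for 12 genes of the Serpina1 and Serpina3 arrays. The Serpina1 genes have 51.4% to 84.8% of windows within 2 mismatches, the Serpina3 genes 3.87% to 23.4%.

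The Serpina3 genes are the mouse counterparts of alpha-1-antichymotrypsin, an inhibitor of chymotrypsin-like proteases such as cathepsin G, and several are acute phase genes. The joint locus of Serpina3k and Serpina3m was the most abundant serpin locus, with 5005 FPKM in the WT and 7970 FPKM in the KO library, a ratio of 1.59. It stood at rank 14 in the WT and rank 9 in the KO library among symbols with a value. The loci marked HIDATA, too abundant to be estimated, were left out of this ranking. Serpina3n, an acute phase inhibitor of granzyme B, had 466 FPKM in the WT and 1120 FPKM in the KO library, a ratio of 2.40. These abundant Serpina3 loci were higher in the KO library.
The less abundant members had the opposite direction. The joint locus of Serpina3g and Serpina3h had 10.95 FPKM in the WT and 4.06 FPKM in the KO library, 2.69-fold lower. Serpina3g encodes an intracellular inhibitor of cathepsins known from leukocytes. Serpina3f had 1.94 FPKM in the WT and 0.493 FPKM in the KO library, 3.94-fold lower, with a 95% counting interval of 2.97 to 5.27. Serpina3i, under the level set for named members and chosen after its values were seen, had 0.569 FPKM and 0.305 FPKM. The other Serpina3 genes and pseudogenes of the array reached at most 0.154 FPKM in either library.

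Added over its 12 loci, the Serpina3 array had 5485 FPKM in the WT and 9095 FPKM in the KO library, a ratio of 1.66, most of it from Serpina3k with Serpina3m and from Serpina3n. Read sharing was lower than among the alpha-1-antitrypsin copies. Within 2 mismatches, 3.87% of the windows of Serpina3n matched another copy, 17.4% of those of Serpina3k, 19.9% of those of Serpina3m and 12.5% of those of Serpina3f. Serpina3k and Serpina3m cannot be told apart here, since the table gives them 1 value over a locus that spans both (chr12:105576696-105632467).

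Other clade A genes lie between or beside these arrays. Serpina11, a secreted member without a settled target, had 17.3 FPKM in the WT and 41.4 FPKM in the KO library, a ratio of 2.39. Serpina12, which encodes vaspin, had 2.32 FPKM and 3.46 FPKM, a ratio of 1.49. Serpina10, the protein Z-dependent inhibitor of factor Xa, had 143 FPKM and 168 FPKM, a ratio of 1.17. All 3 were higher in the KO library.
The pseudogene Serpina4-ps1, a relic of the kallistatin gene, had 2.35 FPKM in the WT and 12.8 FPKM in the KO library, a ratio of 5.45 with a counting interval of 4.62 to 6.50. That was the highest ratio of the 29 members. Its locus started 2702 bases before the annotated gene, so the value covers more than the annotated pseudogene. Serpina5 and Serpina9 were below 0.1 FPKM in both libraries.

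Read along the chromosome among members with a mean of at least 1 FPKM, the ratio of KO to WT was 1.17 at Serpina10, 0.469 at Serpina6, 1.03 at Serpina1b and 1.004 at Serpina1d. It was 1.21 at Serpina1a, 1.23 at Serpina1c and 1.99 at Serpina1e, then 2.39 at Serpina11, 1.49 at Serpina12 and 5.45 at Serpina4-ps1. Beyond these lay the lower group of Serpina3f and Serpina3g with Serpina3h, followed by the higher group of Serpina3k with Serpina3m and Serpina3n. Neighbouring genes share sequence and, for the joint loci, a value, so that their ratios are not independent of each other.

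**Figure D3:**
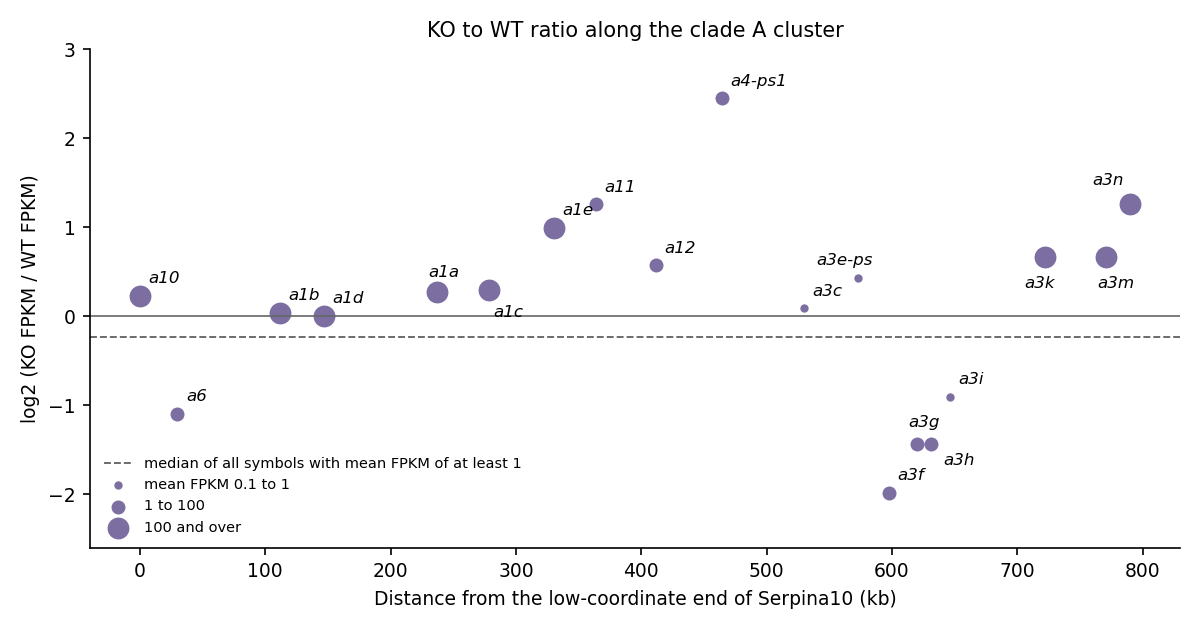
Log2 ratio of KO to WT FPKM of the clade A members on chromosome 12 with a mean FPKM of at least 0.1, against the distance in kb from the low-coordinate end of Serpina10, with the point size giving the mean FPKM and the dashed line the median of all symbols, at -0.24. Serpina4-ps1 is at 2.45 and Serpina3f at -1.98, and joint loci are drawn at both of their genes with the same value.

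Promoter sequence was available in the RefSeq promoter table of GRCm38.p6 for 54 of the 67 members, as windows of 300 bases around the gene start. For the counts of motifs, the window with the lowest coordinate was used where a gene had several. STAT3 carries the interleukin 6 signal to acute phase genes, and its TTCNNNGAA motif was found in that window of 6 of the 54 members and of 8.37% of all 27025 genes with a window. Over every window of a gene, a count chosen after seeing the data, it was found in 8 members and 9.55% of genes. Stretches of 63 bases are shown for Serpina11, which was higher in the KO library, and for the neighbours Serpina3f, Serpina3g and Serpina3i, which had lower values there, with the motif in capitals.

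Serpina11: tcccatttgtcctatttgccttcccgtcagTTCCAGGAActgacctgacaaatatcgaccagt
Serpina3f: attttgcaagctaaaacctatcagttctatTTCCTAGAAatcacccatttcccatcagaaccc
Serpina3g: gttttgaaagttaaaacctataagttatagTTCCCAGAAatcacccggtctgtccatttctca
Serpina3i: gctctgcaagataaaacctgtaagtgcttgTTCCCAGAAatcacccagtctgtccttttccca

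The stretch of Serpina11 is on the minus strand (chr12:103989976-103990038), with the motif beginning 65 bases before the gene start. Those of Serpina3f (chr12:104214393-104214455), Serpina3g (chr12:104236084-104236146) and Serpina3i (chr12:104262990-104263052) are on the plus strand, with the motif 121, 33 and 102 bases before the start. Aligned at the motif, Serpina3g and Serpina3i had 52 of 63 bases alike, and Serpina3f shared 41 with Serpina3g, whereas Serpina11 shared 18 with Serpina3g. Of the 8 members with the STAT3 motif in any window, Serpina11 was higher in the KO library. Lower there were Serpina3f, Serpina3g, Serpina3i, Serpinb2 and Serpinb6a, while Serpina1f and Serpinb9c were listed at 0 in both libraries. Whether the motif bears on the direction was not tested. The C/EBP motif TTGCNNAA was found in 14 of the 54 members and in 10.7% of all genes with a window, among them Serpina1a, Serpina1b, Serpina1d and Serpina1e. The E-box CACGTG was found in 0 of the 54 members and in 7.09% of all genes with a window. The longer HNF1 and heat shock motifs were found in 0 of the 54 members and in 0.437% and 0.533% of all genes with a window. Both strands were searched, and a match is a run of letters and not a bound site.

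Clade A also holds the hormone carriers, which no longer inhibit proteases. Serpina6, corticosteroid-binding globulin, had 40.5 FPKM in the WT and 19.0 FPKM in the KO library, 2.13-fold lower. Serpina7, thyroxine-binding globulin on chromosome X, had 22.6 FPKM and 34.4 FPKM, 1.52-fold higher. The carriers for the steroid and the thyroid hormone thus differed in direction. The other plasma carriers Ttr, Gc and Rbp4, with ratios of 0.961, 0.980 and 1.31, were each within 2-fold, as were all 6 genes with a mean of at least 1 FPKM in a list of 7 hormone carriers and relatives that also holds Agt.

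Among the inhibitors of clotting and complement, differences were small. Antithrombin, encoded by Serpinc1 and the main inhibitor of thrombin and factor Xa, had 574 FPKM in the WT and 565 FPKM in the KO library. Heparin cofactor II, encoded by Serpind1, had 180 FPKM and 202 FPKM, a ratio of 1.12. The C1 inhibitor, encoded by Serping1 and acting on the C1 and contact proteases, had 288 FPKM and 389 FPKM, a ratio of 1.35. The direction of Serpinc1, at a ratio of 0.985, turned when the libraries were scaled to equal medians. The loci of Serpinc1 and Serpind1 were wider than the annotated genes, the latter by 55071 and 87251 bases.

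Among the inhibitors of fibrinolysis, Serpine2, protease nexin 1, had 6.65 FPKM in the WT and 2.19 FPKM in the KO library, 3.04-fold lower, with a 95% counting interval of 2.66 to 3.48. The joint locus of Serpinf2, the plasmin inhibitor alpha-2-antiplasmin, and Serpinf1, the non-inhibitory pigment epithelium-derived factor, had 504 FPKM and 456 FPKM. Serpine2 was thus lower by more than this abundant locus. The ratio of the joint locus, 0.906, also turned above 1 when the libraries were scaled to equal medians.
Serpinb2, an inhibitor of urokinase, is named here although chosen after its values were seen. Its joint locus with Serpinb10-ps had 0.208 FPKM in the WT library and was listed at 0 in the KO library. The WT value was 7.97-fold above a floor of 3 fragments for the Serpinb2 transcript. On that transcript it corresponded to about 22.3 fragments, and the 95% counting interval began at 5.87-fold lower. The locus value does not separate Serpinb2 from Serpinb10-ps. Serpinh1, the collagen chaperone Hsp47, had 12.9 FPKM in the WT and 8.56 FPKM in the KO library, 1.51-fold lower.

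Clade B serpins lack a signal peptide and mostly act inside the cell, where they guard against leaked granule and lysosomal proteases. Of the 28 clade B symbols, pseudogenes included, 17 were listed at 0 in both libraries. The 4 with a mean of at least 1 FPKM were all lower in the KO library, where 76.5% of all symbols with a mean from 1 to 100 FPKM were lower. Serpinb8, an inhibitor of furin, had 6.28 FPKM in the WT and 0.187 FPKM in the KO library, 33.7-fold lower. This was the lowest ratio of the 29 members with a mean of at least 1 FPKM and corresponded to about 1015 against 32.3 fragments, with a 95% counting interval of 23.9 to 50.0. None of its 100-base windows matched Serpinb9 or its copies, and its locus (chr1:109486537-109507605) reached 2119 bases past the annotated gene.
Serpinb9, the granzyme B inhibitor that protects cytotoxic cells from their own granules, had 2.81 FPKM and 1.07 FPKM, 2.63-fold lower. Serpinb6a, an inhibitor of cathepsin G, had 6.37 FPKM and 3.89 FPKM, 1.64-fold lower, from a locus that reached 34353 bases past the annotated gene. The Serpinb6a copy Serpinb6b had 1.80 FPKM and 0.732 FPKM, 2.46-fold lower. Serpinb1a, an elastase inhibitor of neutrophils below the level set for named members and chosen after its values were seen, had 0.458 FPKM and 0.377 FPKM. Of clade I, Serpini1, neuroserpin, had 0.137 FPKM and 0.126 FPKM and Serpini2 was listed at 0 in both.

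Several lists of markers of cells other than hepatocytes were mostly lower in the KO library, beside these clade B serpins and Serpine2. Among all symbols with a mean of at least 1 FPKM, 75.6% were lower and 8.69% over 2-fold lower as deposited. Of 13 macrophage and Kupffer cell markers, 12 were lower (11 with equal medians), and their summed level was 120 FPKM in the WT and 74.5 FPKM in the KO library, with Cd5l at 18.4 and 10.8 FPKM. All 4 neutrophil markers with a mean of at least 1 FPKM were lower, and the list summed to 25.5 FPKM and 9.53 FPKM, with 3 of its 12 genes at 0 in both. The largest part of that difference came from Prtn3, at 9.64 FPKM and 1.14 FPKM, which is also in the list of target proteases below. All 11 stellate cell and fibroblast markers of that level were lower (10 with equal medians), with sums of 131 FPKM and 76.6 FPKM. Of 12 endothelial markers, 11 were lower (8 with equal medians), with sums of 82.9 FPKM and 60.6 FPKM.
All 3 mesothelial markers of that level, Msln, Krt19 and Upk3b, were over 2-fold lower, and the 6 genes of that list summed to 6.995 FPKM and 2.36 FPKM. The ratio of Serpinb8 was below that of each of these list sums. Cholangiocyte markers summed to 33.8 FPKM and 29.5 FPKM, and platelet markers to 3.97 FPKM and 2.96 FPKM. All 4 cholangiocyte markers with a mean of at least 1 FPKM were lower as deposited, but 3 of them were higher with equal medians. Of the platelet markers of that level, 1 was higher and 1 lower under either scaling. Lymphocyte and NK cell markers summed to 1.23 FPKM and 0.625 FPKM, with no gene of a mean of 1 FPKM. Of the pancreatic acinar list, 8 of 10 genes were at 0 in both libraries, and Cela1 had 8.77 FPKM and 18.8 FPKM. In whole liver, fewer cells of a type and less RNA per cell cannot be told apart, and the part of these cells in the serpin values was not tested.
Hepatocyte markers were mostly higher. Of the 10 with a value, 7 were higher in the KO library (8 with equal medians), with sums of 19540 FPKM and 22572 FPKM. Among them Cyp2e1 was 2.23-fold higher and Cps1 2.15-fold lower.

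The proteases that serpins act on were compared through a list of 29 target proteases and zymogens. Of the 20 with a mean of at least 1 FPKM, 10 were higher and 10 lower in the KO library (16 and 4 with equal medians), and 2 were over 2-fold lower and 0 over 2-fold higher. As deposited, 75.6% of all symbols of that level were lower, 8.69% over 2-fold lower and 1.77% over 2-fold higher. F7 and F10, named for this reason only, had the same 193 FPKM (WT) and 176 FPKM (KO), so these counts hold 1 value for both genes. Plg, the precursor of plasmin, had 516 FPKM in the WT and 741 FPKM in the KO library. F2, prothrombin, had 460 FPKM and 579 FPKM, and Ctsl, cathepsin L, had 546 FPKM and 373 FPKM. These most abundant genes of the list stayed within 2-fold.
The members over 2-fold lower were Prtn3, a neutrophil granule protease at 9.64 FPKM and 1.14 FPKM, and Prss8, a membrane-anchored protease at 3.72 FPKM and 0.478 FPKM. The median log2 ratio of the list was -0.09, against -0.25 over all symbols.

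The 9 cofactors and receptors of serpins with a mean of at least 1 FPKM stayed within 2-fold. Of these, 5 were higher and 4 lower (7 and 2 with equal medians), where 24.4% of all symbols of that level were higher as deposited. Vtn, vitronectin, an adhesion protein of plasma and matrix, had 955 FPKM in the WT and 1329 FPKM in the KO library. Sdc4, a heparan sulfate proteoglycan, had 227 FPKM and 228 FPKM, and Lrp1, the receptor that clears serpin and protease complexes, had 126 FPKM and 190 FPKM.

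Protease inhibitors of other families were compared through a list of 25 genes. Of 21 with a mean of at least 1 FPKM, 12 were higher and 9 lower, with 2 over 2-fold higher and 3 over 2-fold lower (3 and 2 with equal medians). Over all symbols of that level as deposited, 24.4% were higher and 75.6% lower, with 1.77% over 2-fold higher and 8.69% over 2-fold lower. Ahsg, fetuin A, had 5309 FPKM in the WT and 5991 FPKM in the KO library. Itih4, an acute phase member of the inter-alpha-inhibitor family, had 784 FPKM and 2162 FPKM, 2.76-fold higher. Ambp, the precursor of bikunin, had 1365 FPKM and 1521 FPKM.
Mug1, a murinoglobulin of the alpha-2-macroglobulin family, was 2.43-fold higher, at 243 FPKM and 591 FPKM. Lower were the metalloprotease inhibitors Timp1, at 4.48 FPKM and 0.932 FPKM, and Timp3, at 4.21 FPKM and 1.52 FPKM, and the tissue factor pathway inhibitor Tfpi, at 2.17 FPKM and 0.955 FPKM. Mug2, a relative of Mug1 chosen after its values were seen, had 74.3 FPKM and 60.3 FPKM, and read sharing between Mug1 and Mug2 was not tested.

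Serpinh1 was read beside the genes of collagen folding and cross-linking. Of 11 with a mean of at least 1 FPKM, 9 were lower and 2 higher in the KO library (7 and 4 with equal medians). As deposited, 75.6% of all symbols of that level were lower and 8.69% over 2-fold lower. The median log2 ratio of the list was -0.48, against -0.25 over all symbols. P4hb, a subunit of prolyl hydroxylase and a general folding enzyme, had 516 FPKM in the WT and 688 FPKM in the KO library, Ppib had 158 FPKM and 181 FPKM, and Plod1, a lysyl hydroxylase, had 19.4 FPKM and 13.3 FPKM. The collagen chains, clients of Hsp47, were the 3 genes over 2-fold lower. Col3a1 had 14.5 FPKM and 3.18 FPKM, Col1a1 had 8.56 FPKM and 1.75 FPKM, and Col1a2 had 7.68 FPKM and 1.47 FPKM. The ratio of Serpinh1, 0.664, was closer to 1 than those of these collagen genes, which ran from 0.191 to 0.219.

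**Figure D4:**
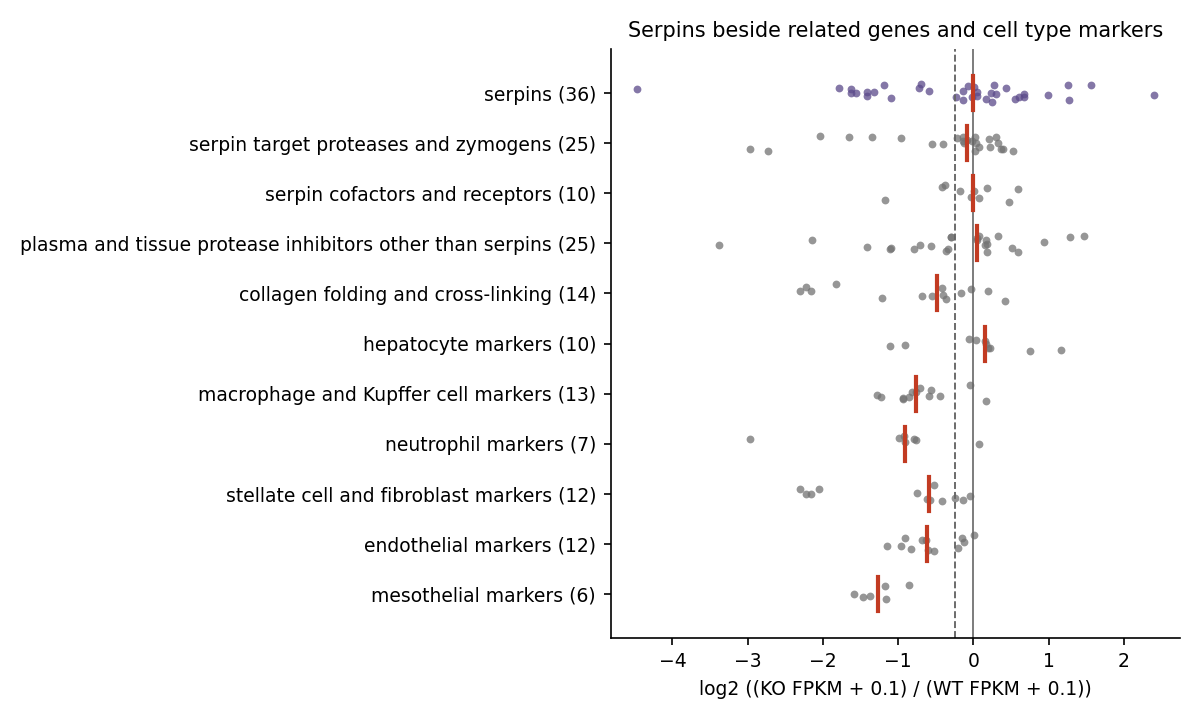
Log2 ratio of KO to WT, with 0.1 FPKM added to each value, of every gene with a mean FPKM of at least 0.1 in the serpins, 4 lists of related genes and 6 lists of cell type markers, with the number of genes in brackets, a red bar at each median and a dashed line at the median of all symbols, -0.25. The serpins spread widest, from Serpinb8 to Serpina4-ps1, around a median of -0.01, while the macrophage, neutrophil and mesothelial medians are -0.76, -0.90 and -1.27.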

How the data were processed

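The authors aligned reads with TopHat 2.0.0 to mm9 (NCBI37), assembled transcripts with Cufflinks 1.3.0 and estimated 1 FPKM per locus and library with Cuffdiff. The deposited FPKM values were used as they stand. The labels describe paired-end reads and the paper's methods single end reads. The columns of the authors' own comparison (fold changes, test statistics and p-values) were not used. Loci matched GENCODE vM1 on NCBIM37, with 18756 of 30401 single-symbol loci equal in start and end, and 2302 loci had no symbol.

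Rows of a symbol were summed. Ratios are of FPKM, and for log2 ratios of lists 0.1 FPKM was added to both values, so that changes of low genes are understated. Fragments were estimated from FPKM, the longest annotated transcript and the depth, and the 95% counting intervals are exact binomial (Clopper-Pearson), approximate, and cover counting error only. No test across samples was possible. Named genes are the members whose mean reached 1 FPKM and, from the lists, genes among the 3 highest or over 2-fold, unless stated. The values of 1 member are not reported here. Members, lists and rules were chosen with earlier results of these data known. The tools were pandas 2.3.3, numpy 2.4.6, Biopython 1.88, scipy 1.17.1 and matplotlib 3.10.9 under Python 3.11.15, and steps were tested on simulated data. Alternatives covered scaling, thresholds, pseudocount, filters and joint loci.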

Additional observations from a re-analysis of the deposited data

How the results depend on the processing

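No paired analysis was possible because each genotype has 1 library, and for the same reason no replicate could be left out. Scaling the KO library to equal upper quartiles, equal medians of expressed genes or equal sums of FPKM moved its log2 values by 0.20, 0.24 and 0.03. The median log2 ratio of the serpins, -0.01 as deposited, then became 0.17, 0.19 and 0.027. It was 0.045 without joint loci, 0.043 over the members whose mean reached 1 FPKM and 0.024 with each joint locus counted once, the last chosen after seeing the data. With equal medians, the non-inhibitory group moved from -0.36 to -0.13. A fold of 1.5 raised the members higher in the KO library from 4 to 8, and requiring 1 FPKM in each library reduced those lower from 8 to 5. The scalings gave 5 higher and 7 or 8 lower members. Over all symbols, 207 higher and 1019 lower became 314 and 762 with equal upper quartiles and 334 and 726 with equal medians. The remaining 83 of 92 recomputed values kept their direction, with counts and cluster ratios within 1.5 times and medians within the interval or range of their members. Some medians of small groups still moved far: without joint loci, and with each counted once, the fibrinolysis inhibitors went from -0.85 to -0.0022. Without joint loci the pseudogenes went from 0.25 to 1.32, and with equal medians the hormone carriers went from -0.24 to -0.0076. Depth limits members below 1 FPKM, some of which rest on under 10 fragments.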
